A study of Mus musculus with 8 samples.

Results

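The genes described here are 36 genes of lipid droplets and fatty acid oxidation, out of 55357 genes listed in a count table of bone marrow-derived macrophages (BMDMs) from C57BL/6J wild-type mice. They were taken from the table by name, in 10 roles: droplet coat proteins, lipases, lipase inhibitors, triglyceride synthesis, fatty acid binding, fatty acid activation, the carnitine shuttle, beta-oxidation, the electron transfer flavoprotein and regulators. Of the 36, 34 had enough counts to be tested. BMDMs are macrophages grown from marrow in M-CSF, the macrophage growth factor. The 4 control libraries came from cells that received methanol for 6 h, and the 4 So(d18:1) libraries from cells that received 2 μM sphingosine d18:1, the long-chain base of sphingolipids, dissolved in methanol, for the same time. The labels name no inflammatory stimulus, whereas the study speaks of one, and they do not say whether the replicates were separate animals or cultures, so the p-values measure the spread between these libraries, which may be technical. Poly(A) RNA was sequenced, and total counts lay between 17748397 and 26088609 per library. Of the 14514 genes tested, 1298 passed an adjusted p of 0.05 (8.94%), with 562 higher (3.87%) and 736 lower (5.07%) in So(d18:1) libraries. Levels of a gene are given as CPM, counts scaled by TMM to a common library total, and levels compared between genes as RPKM, which also divides by the length of the gene's exons. That length joins the exons of all annotated transcripts of a gene and can far exceed its main mRNA. Levels and ranks by RPKM therefore also depend on the annotation.

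A macrophage stores fatty acids as triglyceride and cholesteryl ester in lipid droplets, whose surface is coated by perilipins. Lipases at the droplet, in the lysosome and outside the cell set fatty acids free, binding proteins carry them, and acyl-CoA synthetases activate them. The carnitine shuttle then brings the acyl groups into the mitochondrion, where beta-oxidation shortens them and passes electrons to the respiratory chain through the electron transfer flavoprotein. Macrophages that fill with droplets become foam cells, and PPAR nuclear receptors, which bind fatty acids, regulate many of these genes.

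Of the 34 members tested, 7 passed the adjusted p of 0.05 (20.6%, beside 8.94% of all genes tested). The lipases Lipa, Lpl and Mgll and the fatty acid binding proteins Fabp4 and Fabp5 fell (14.7%, beside 5.07% of all genes), while the lipase Pnpla2 and the carnitine palmitoyltransferase Cpt2 rose (5.88%, beside 3.87%). With upper quartile scaling the split was 1 higher and 6 lower, Plin2 taking the place of Cpt2. With 1 library left out, 4 passed without control replicate 4 and 3 passed without So(d18:1) replicate 2, 3 or 4. Among the 14 members of droplet coat, lipase, lipase inhibitor, triglyceride synthesis and binding roles, 11 had a lower value and 3 a higher value in So(d18:1) libraries, with a median log2 fold change of -0.25. Among the 15 members of the shuttle, beta-oxidation and electron transfer flavoprotein, 13 had a higher value and 2 a lower value, with a median of 0.11, and Cpt2 passed the test. Over all 14514 genes tested, 7387 had a higher value and 7127 a lower value, with a median log2 fold change of 0.0036. The 3 activation members (2 higher, 1 lower) and the 2 tested regulators (2 higher) are in neither group. Changes were small: by the study's cutoff of an unadjusted p of 0.05 with a 1.5-fold change, Lpl and Fabp4 counted as lower (2 of 34, beside 3.89% of all genes in either direction and 2.48% lower) and no member as higher (beside 1.41%). In bulk RNA, fewer cells of a type and less RNA per cell cannot be told apart.

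**Figure D1:**
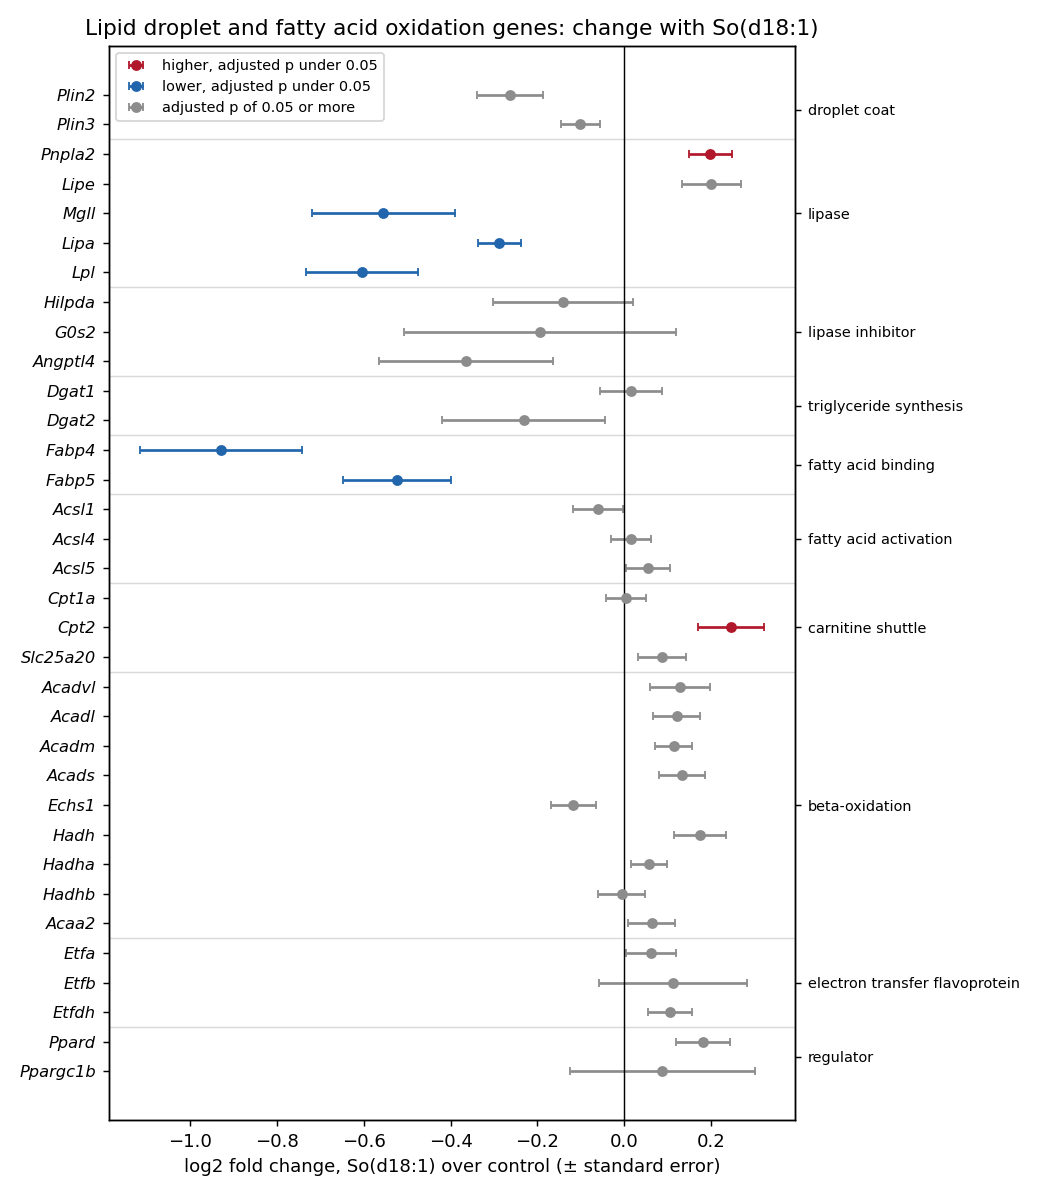
The plot gives the log2 fold change (So(d18:1) minus control) of the 34 tested members, ordered by role, with bars for the standard error, and with red (higher) and blue (lower) points for an adjusted p under 0.05 (edgeR) and grey points for the others. Fabp4 has the lowest value at -0.93 and Cpt2 the highest at 0.25, and the beta-oxidation members lie between -0.12 and 0.17.

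The members covered a wide range of levels. Plin2 (206 RPKM, mean of the control libraries) and Lipa (188 RPKM) stood highest, and Lpl (57.4 RPKM), Pnpla2 (43.5 RPKM), Acadl (36.8 RPKM), Cpt1a (36.6 RPKM) and Fabp5 (35.1 RPKM) followed. Fabp4, the binding protein best known from adipocytes, was at 2.29 RPKM. Its length as used, 4489 bases, covers the whole gene from first to last base, so this RPKM may be too low. Mgll (0.915 RPKM), G0s2 (0.827 RPKM) and Ppargc1b (0.410 RPKM) were the lowest of the tested members. The 2 members not tested were regulators. Ppara, the PPAR best known from liver, had 1 count in control replicate 1 and 0 counts in the other libraries, where a count of 0 allows up to 0.115 to 0.169 CPM (3 counts of the library's total). Pdk4, a pyruvate dehydrogenase kinase that spares glucose when fat is burned, had 1 to 8 counts in each control and 2 to 14 in each So(d18:1) library. The limits for a count of 0 cover counting error only, and the ranges of counts run from the lowest to the highest library of a group.

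**Figure D2:**
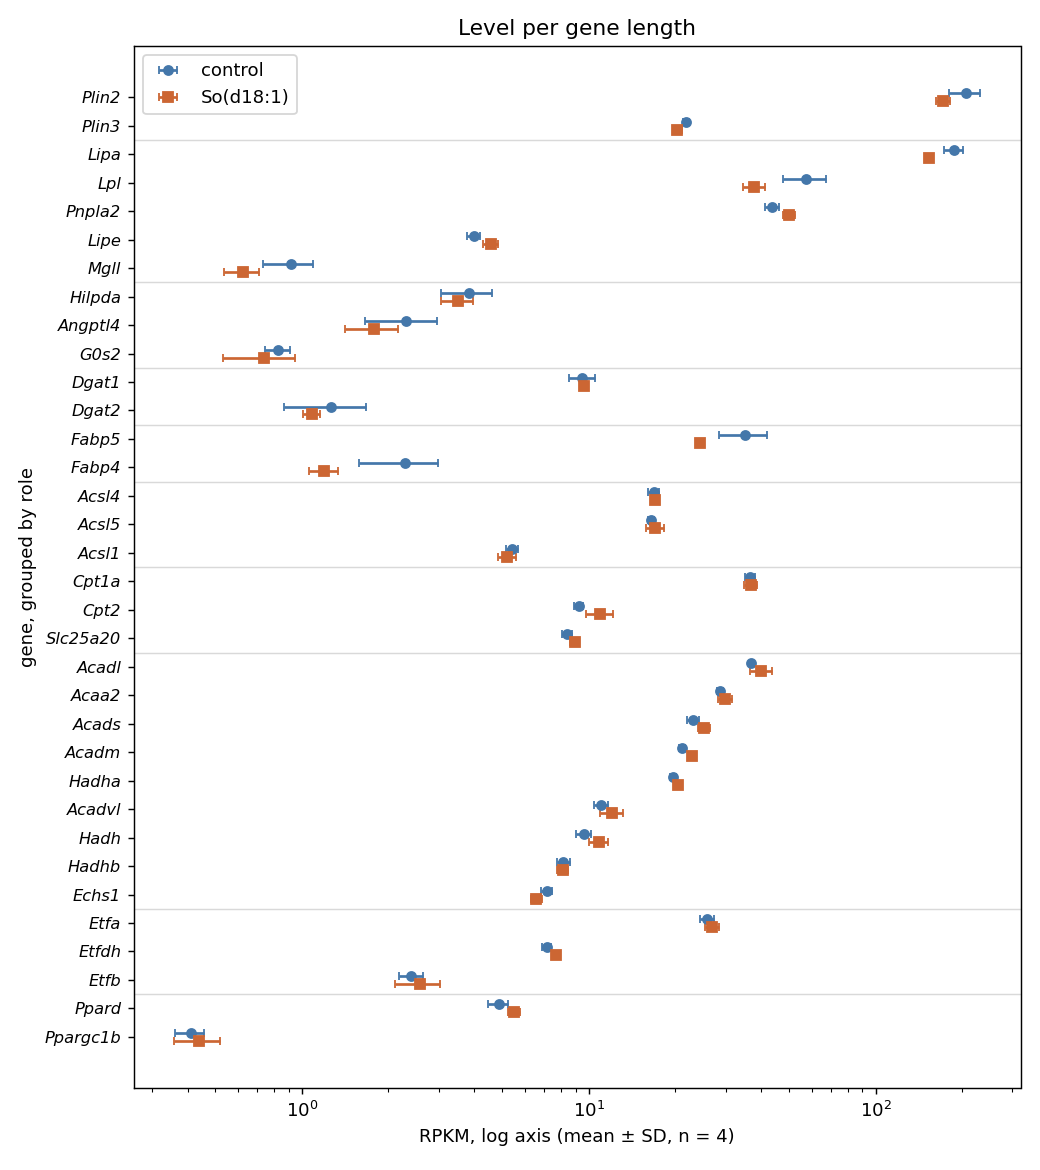
The plot gives the level of the tested members in RPKM on a log axis, grouped by role, with points for the mean of the 4 control (blue circles) and 4 So(d18:1) libraries (orange squares) and bars for the SD. Levels run from 0.410 RPKM for Ppargc1b to 206 RPKM for Plin2 (control means), and the groups differ by far less than the members do.

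The cultures had the markers of macrophages: the 8 macrophage markers summed to 30650 to 32994 CPM in control and 26524 to 31476 CPM in So(d18:1) libraries, most of it Lyz2. Of the 8, Mertk and Cd68 passed as lower (log2 fold changes of -0.38, adjusted p = 6.20e-06, and -0.22, adjusted p = 0.00349) and Itgam passed as higher (0.18, adjusted p = 0.0119). All 8 adipocyte markers were too low to test, with Lep, Cidec and Adrb3 at 0 in every library, and they summed to 0.271 to 0.908 CPM. The 5 hepatocyte markers summed to at most 0.104 CPM. Neutrophil markers were also lower. The 8 of them summed to 1728, 1686, 2330 and 2083 CPM in control replicates 1 to 4 and to 1506, 1328, 1390 and 1509 CPM in So(d18:1) replicates 1 to 4, so that the groups did not overlap, and S100a8, S100a9, Elane, Mpo and Cxcr2 passed as lower. Control replicate 3 was the highest control library in all 8, and it was also the highest control library for 16 of the 34 tested members (47.1%, beside 28.5% of all genes tested). The part of the macrophage and neutrophil markers in the results below was not tested. Summed levels of dendritic cell markers (5.56 to 7.75 CPM in control, 6.44 to 8.13 in So(d18:1) libraries), stromal markers (6.25 to 10.0 and 5.74 to 8.46) and erythroid markers (0.955 to 1.20 and 0.673 to 1.32) overlapped, and those of 6 lymphocyte markers lay at 4.06 to 6.75 and 2.49 to 3.42 CPM, with Nkg7 passing as lower.

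Of the 5 lipases, 3 fell (5.07% of all genes passed as lower) and 1 rose (3.87% as higher). All 5 had an unadjusted p under 0.05 (23.4% of all genes) and Lipe alone did not pass the adjusted p. Lipa (ENSMUSG00000024781, GRCm38 chr19:34492318-34527474) encodes lysosomal acid lipase, which splits cholesteryl esters and triglycerides taken up by the cell. Its level was 1209, 1184, 1389 and 1303 CPM in control replicates 1 to 4 and 1034, 1007, 1039 and 1086 CPM in So(d18:1) replicates 1 to 4. Every So(d18:1) library lay below every control library. The mean went from 1271 ± 94.0 to 1042 ± 32.9 CPM (SD, n = 4), which is -0.29 as a log2 fold change (SE 0.050, 95% confidence interval -0.39 to -0.18, adjusted p = 0.000663, edgeR's quasi-likelihood test with Benjamini-Hochberg adjustment). Lipa passed with each of the 8 libraries left out (-0.32 to -0.24, largest adjusted p = 0.00513).

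Lpl (ENSMUSG00000015568, chr8:68880491-68907448) encodes lipoprotein lipase, which macrophages secrete and which frees fatty acids from lipoproteins. It was at 564, 492, 734 and 615 CPM in the control libraries and 439, 375, 362 and 407 CPM in the So(d18:1) libraries. The groups did not overlap, and the control libraries were the more spread, with replicate 3 highest. The mean fell from 601 ± 102 to 396 ± 34.3 CPM, and the log2 fold change of -0.60 (SE 0.13, 95% confidence interval -0.91 to -0.30, adjusted p = 0.0327) was the largest among the lipases. Its direction held with each library left out (-0.69 to -0.49), but it no longer passed without control replicate 1 (adjusted p = 0.0577), control replicate 4 (adjusted p = 0.0875), So(d18:1) replicate 2 (adjusted p = 0.0828), So(d18:1) replicate 3 (adjusted p = 0.0724) or So(d18:1) replicate 4 (adjusted p = 0.0919), nor with no filter on low counts (adjusted p = 0.0719). Mgll (monoacylglycerol lipase, chr6:88724412-88828360), which cuts the last fatty acid from glycerol, was low, with 94 to 142 counts in each control and 50 to 83 in each So(d18:1) library. Its levels were 4.52, 3.94, 5.99 and 4.13 CPM in control and 3.70, 3.12, 2.60 and 3.22 CPM in So(d18:1) libraries. All So(d18:1) libraries lay below all control libraries (log2 fold change -0.55, SE 0.16, adjusted p = 0.0381). The call was lost without control replicate 1 (adjusted p = 0.0658), control replicate 3 (adjusted p = 0.162), So(d18:1) replicate 2 (adjusted p = 0.0912), So(d18:1) replicate 3 (adjusted p = 0.103) or So(d18:1) replicate 4 (adjusted p = 0.0770), and by limma-voom (adjusted p = 0.0562).

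Pnpla2 and Lipe, which act before Mgll in the breakdown of droplet triglyceride, had higher values. Pnpla2 (ENSMUSG00000025509, chr7:141455198-141460743) encodes adipose triglyceride lipase, the enzyme of the first step. Its level was 132, 122, 132 and 139.8 CPM in control and 153, 152, 141 and 157 CPM in So(d18:1) libraries, with no overlap. The rise, from 131 ± 7.36 to 151 ± 6.98 CPM, was small but exceeded the spread between libraries (log2 fold change 0.20, SE 0.049, 95% confidence interval 0.10 to 0.30, adjusted p = 0.0127), and it passed with each library left out (largest adjusted p = 0.0434). Control replicate 3 was the highest control for Lipa, Lpl and Mgll, as for the neutrophil markers, but not for Pnpla2. Lipe, hormone-sensitive lipase, stood at 23.0, 23.2, 22.1 and 25.1 CPM in control and 24.7, 27.5, 26.6 and 28.4 CPM in So(d18:1) libraries. The groups overlapped, and it did not pass (log2 fold change 0.20, SE 0.068, adjusted p = 0.0721). Of its exon bases, 15.6% overlap a gene on the opposite strand, and the strand setting of the counting is not given in the sources used here.

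For 28 of the 36 members the RefSeq table (GRCm38.p6) held at least 1 promoter window, with 32 windows in all. The 250 bases before the start are shown for the 4 members that passed the test and had one, so that the called lipases can be read beside Cpt2. Where a member had more than 1 window, the first listed is shown. Capitals mark matches to short motifs, searched on both strands. They are the CCAAT box in the Lipa window, the E-box in the Mgll window, whose letters are CACGTG, and the GC box in the other two, whose letters are CCGCCC or, read on the opposite strand, their reverse complement. These motifs were chosen after a larger set had been looked at in these windows.
Lipa, chr19:34527475-34527724, minus strand: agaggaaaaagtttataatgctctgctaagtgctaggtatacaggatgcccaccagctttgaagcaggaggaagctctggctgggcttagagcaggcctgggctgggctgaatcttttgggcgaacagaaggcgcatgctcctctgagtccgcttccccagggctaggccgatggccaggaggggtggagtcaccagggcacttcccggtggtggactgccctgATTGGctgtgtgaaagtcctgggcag
Mgll, chr6:88724162-88724411, plus strand: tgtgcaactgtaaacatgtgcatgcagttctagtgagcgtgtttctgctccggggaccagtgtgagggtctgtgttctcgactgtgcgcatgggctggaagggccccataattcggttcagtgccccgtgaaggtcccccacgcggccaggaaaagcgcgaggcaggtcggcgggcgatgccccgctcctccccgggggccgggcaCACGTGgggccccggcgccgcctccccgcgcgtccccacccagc
Pnpla2, chr7:141454938-141455187, plus strand: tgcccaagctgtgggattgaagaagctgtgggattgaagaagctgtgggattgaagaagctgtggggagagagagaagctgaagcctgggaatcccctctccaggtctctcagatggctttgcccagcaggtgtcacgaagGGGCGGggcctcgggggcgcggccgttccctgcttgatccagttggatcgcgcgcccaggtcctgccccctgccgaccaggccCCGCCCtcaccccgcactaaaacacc
Cpt2, chr4:107923590-107923839, minus strand: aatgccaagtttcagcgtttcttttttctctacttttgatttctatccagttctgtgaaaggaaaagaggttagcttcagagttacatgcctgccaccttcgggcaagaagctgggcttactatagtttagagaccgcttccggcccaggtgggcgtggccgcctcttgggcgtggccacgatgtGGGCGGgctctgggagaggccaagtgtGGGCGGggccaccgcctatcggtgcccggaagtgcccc

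In the Lipa window the CCAAT box lay 26 to 22 bases before the start, and in the Mgll window the E-box lay 44 to 39 bases before it. Both members that rose had GC boxes, at 109 to 104 and 26 to 21 bases before the start in Pnpla2 and at 65 to 60 and 38 to 33 bases in Cpt2. Mgll, which fell, also had a GC box, in a window that is not shown, so the GC box does not part the members that rose from those that fell. The GC box is common: it was in 19 of the 32 windows of members and in 32.7% of the 32851 windows in the table. The CCAAT box was in 12 of the 32 and 33.8% of all windows, and the E-box in 2 of the 32, those of Mgll and Lipe, and 6.02% of all. AGGTCA, the letters a nuclear receptor binds singly, was in 5 of the 32 (Acadm, Acadvl, Cpt1a, Echs1 and Plin2) and 14% of all, and its direct repeat spaced by 1 base, the form known for PPAR, was in 0 of the 32 and 0.0335% of all. An exact match is so rare that 0 of the 32 says nothing about PPAR sites in these genes. Lpl, Fabp4 and Fabp5 had no window. A match is a description of these letters and not a binding site.

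Both fatty acid binding proteins fell (5.07% of all genes passed as lower). Fabp4 (ENSMUSG00000062515, chr3:10204088-10208576), which carries fatty acids in the cytosol of adipocytes and macrophages, was at 9.91, 7.40, 14.7 and 9.04 CPM in control and 4.88, 5.02, 6.25 and 5.39 CPM in So(d18:1) libraries. Each So(d18:1) library was below each control library, and control replicate 3 was at 1.67 times the mean of the other controls. The mean went from 10.3 ± 3.14 to 5.39 ± 0.615 CPM, a ratio of 0.525 and the largest change of any tested member (log2 fold change -0.93, SE 0.19, 95% confidence interval -1.33 to -0.52, adjusted p = 0.00756). It passed with each of the 8 libraries left out, at -1.06 to -0.70, the smallest change being the one without control replicate 3 (largest adjusted p = 0.0445). Fabp5 (chr3:10012548-10016607), the epidermal form and the more abundant of the pair here, was at 114, 107, 160.4 and 120.4 CPM in control and 86.4, 87.0, 86.3 and 89.1 CPM in So(d18:1) libraries. The So(d18:1) libraries lay close together below all controls. The mean fell from 125 ± 24.0 to 87.2 ± 1.29 CPM (log2 fold change -0.52, SE 0.12, adjusted p = 0.0430). Without control replicate 3 the change was smaller but better resolved (-0.38, adjusted p = 1.86e-05), whereas the call was lost without control replicate 1 (adjusted p = 0.0509), control replicate 4 (adjusted p = 0.0878), So(d18:1) replicate 1 (adjusted p = 0.0874), So(d18:1) replicate 2 (adjusted p = 0.104), So(d18:1) replicate 3 (adjusted p = 0.0899) or So(d18:1) replicate 4 (adjusted p = 0.118). Of the 50-base words of Fabp5 transcripts, 5.48% occur in other genes, Gm6166 and Gm14328 among them. The neutrophil markers given above moved in the same direction as both binding proteins and were also highest in control replicate 3.

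**Figure D3:**
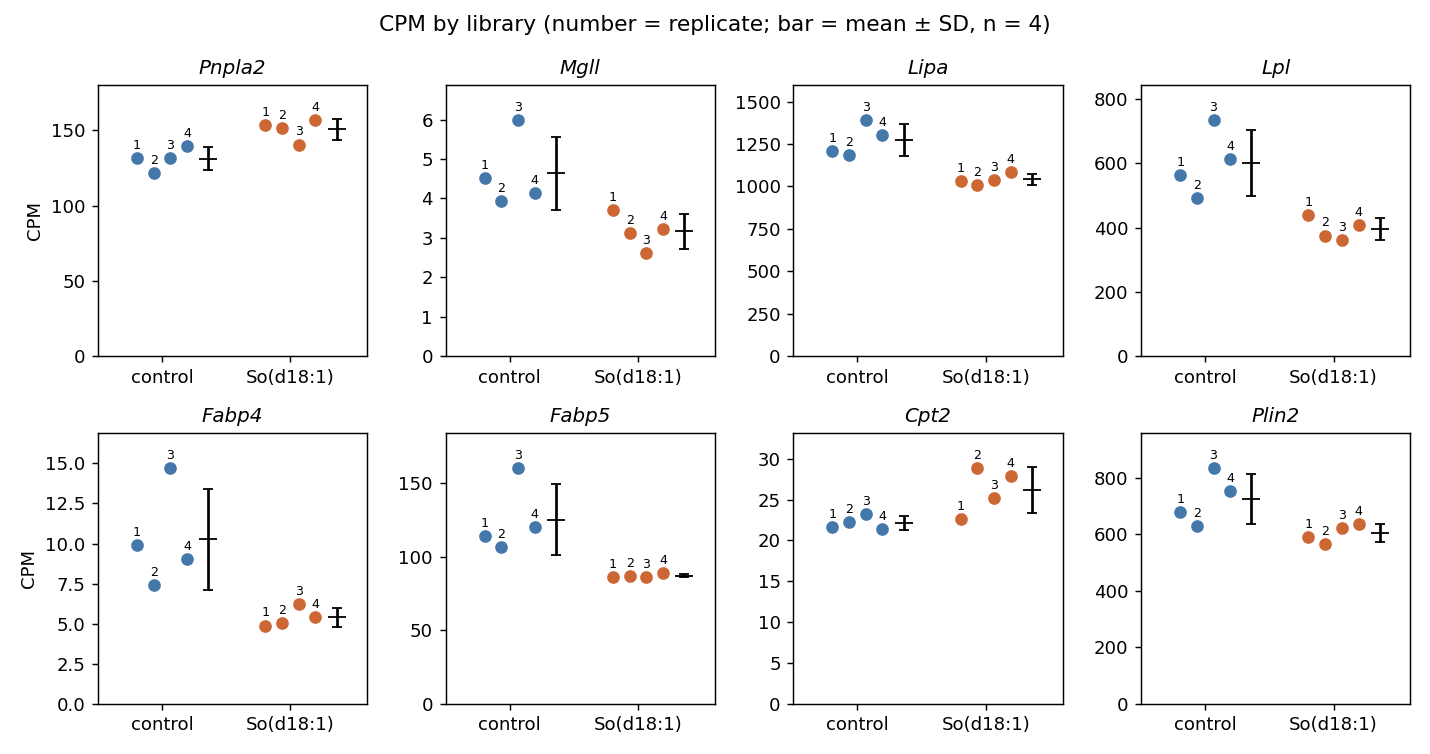
The plot gives the level in CPM, on a linear axis from 0, of the 7 members that passed the test and of Plin2, with 1 numbered point for each of the 4 control and 4 So(d18:1) libraries and a bar for the mean and SD beside them. The groups do not overlap for Lipa, Lpl, Mgll, Pnpla2, Fabp4 and Fabp5, while they overlap for Cpt2 and Plin2.

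The droplet coats had lower values that did not pass. Plin2, the perilipin that coats droplets in most cells and marks foam cells, was at 679.7, 631, 835 and 752 CPM in control and 590.4, 566, 622 and 637 CPM in So(d18:1) libraries. The highest So(d18:1) library exceeded only the lowest control library. The mean went from 725 ± 88.9 to 604 ± 32.1 CPM (log2 fold change -0.26, SE 0.076, 95% confidence interval -0.43 to -0.10, adjusted p = 0.0527, unadjusted p = 0.00490, edgeR), which lies next to the threshold: it passed in 8 of 9 other settings, among them the DESeq2 Wald test (adjusted p = 0.00454) and limma-voom (adjusted p = 0.0257), and without control replicate 1, 2 or 3 (adjusted p = 0.0469, 0.00178 and 0.0476). Plin3, a coat protein that moves between cytosol and young droplets, was at 84.8, 82.1, 83.9 and 80.3 CPM in control and 79.5, 77.7, 73.1 and 78.2 CPM in So(d18:1) libraries. The groups did not overlap, but the difference was small (log2 fold change -0.10, SE 0.046, adjusted p = 0.184). Over all members, 6 of the 34 lay lower without overlap (7.87% of all genes tested), namely Plin3 and the 5 that fell, and 3 lay higher without overlap (7.14% of all genes), namely Pnpla2, Acadm and Etfdh. With 4 libraries a group, the exact permutation test of 1 gene cannot give a p below 0.0286.

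None of the 3 lipase inhibitors passed the adjusted p by edgeR's test (8.94% of all genes did), its likelihood ratio test, DESeq2 or limma-voom. By edgeR's test 0 of them had an unadjusted p under 0.05, beside 23.4% of all genes, and all 3 had lower values. Hilpda, a hypoxia-inducible inhibitor of adipose triglyceride lipase, was at 4.23, 3.22, 5.31 and 4.13 CPM in control and 4.26, 3.57, 4.27 and 3.30 CPM in So(d18:1) libraries (log2 fold change -0.14, SE 0.16, adjusted p = 0.656). G0s2, another inhibitor of the same enzyme, was low, with 13 to 20 counts in each control and 12 to 16 in each So(d18:1) library. Its levels were 0.625, 0.796, 0.717 and 0.743 CPM and 0.897, 0.588, 0.625 and 0.466 CPM (log2 fold change -0.19, SE 0.31, adjusted p = 0.765). Groups overlapped for both genes. Angptl4, a secreted inhibitor of lipoprotein lipase, had the largest difference of the 3 (log2 fold change -0.36, SE 0.20, adjusted p = 0.309), at 6.59, 6.01, 10.9 and 9.24 CPM in control and 5.38, 5.07, 7.19 and 7.72 CPM in So(d18:1) libraries. Its controls differed among themselves by more than the groups did.

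Triglyceride synthesis and fatty acid activation did not pass in any of their 5 members by edgeR's test, its likelihood ratio test, DESeq2 or limma-voom. Over all genes, 8.94% passed by edgeR's test and 23.4% had an unadjusted p under 0.05, as did 0 of these 5. Dgat1, 1 of the enzymes that add the last fatty acid to triglyceride, was at 28.4, 26.2, 33.3 and 28.4 CPM in control and 29.6, 30.4, 29.2 and 28.4 CPM in So(d18:1) libraries (log2 fold change 0.016, SE 0.071, adjusted p = 0.926). Dgat2, the other, was at 2.69, 3.18, 5.48 and 4.29 CPM in control and 3.48, 3.03, 3.33 and 3.53 CPM in So(d18:1) libraries (log2 fold change -0.23, SE 0.19, adjusted p = 0.504). In both, control replicate 3 was the highest control and the groups overlapped. Acsl4, an acyl-CoA synthetase that favours polyunsaturated fatty acids, was the highest of the synthetases per length in control libraries (16.8 RPKM, beside 16.5 for Acsl5), though not in So(d18:1) libraries (17.0 beside 17.1 RPKM), differences within the spread between libraries. It was at 89.6, 95.7, 92.4 and 86.5 CPM in control and 93.2, 87.4, 94.3 and 93.2 CPM in So(d18:1) libraries (log2 fold change 0.015, SE 0.047, adjusted p = 0.887, 95% confidence interval -0.082 to 0.11). Acsl1 was the lowest per length, at 54.4, 54.9, 60.1 and 57.9 CPM in control and 53.0, 52.1, 60.5 and 52.6 CPM in So(d18:1) libraries (log2 fold change -0.060, SE 0.057, adjusted p = 0.574). Acsl5 had a log2 fold change of 0.055 (adjusted p = 0.562). The 95% confidence intervals of all 3 synthetases contained 0, with that of Acsl1 from -0.18 to 0.059 and that of Acsl5 from -0.051 to 0.16.

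In the carnitine shuttle 1 of the 3 members, Cpt2, rose (3.87% of all genes passed as higher). Cpt1a (ENSMUSG00000024900, chr19:3322334-3385733) makes acylcarnitine at the outer mitochondrial membrane, the controlled step of fatty acid entry. The study examined its promoter with a luciferase reporter in a transfected cell line, at a higher dose and for longer than here. There HIF-2α lowered the reporter signal, but not in the presence of So(d18:1). In these BMDM libraries Cpt1a RNA was at 274, 270.0, 280.2 and 294 CPM in control and 275, 262, 296 and 288 CPM in So(d18:1) libraries. The groups overlapped, and the means, 279.6 ± 10.8 and 280.4 ± 14.7 CPM, differed by less than their spread (log2 fold change 0.0039, SE 0.046, adjusted p = 0.973; two-sided exact permutation test, p = 0.914). The 95% confidence interval of the log2 fold change ran from -0.092 to 0.10, and its sign changed with upper quartile scaling. Slc25a20, the carrier that exchanges acylcarnitine for carnitine across the inner membrane, was at 42.5, 41.4, 38.3 and 40.7 CPM in control and 44.9, 44.3, 41.1 and 42.8 CPM in So(d18:1) libraries (log2 fold change 0.087, SE 0.055, adjusted p = 0.368). Cpt2 (chr4:107903981-107923610), which turns acylcarnitine back into acyl-CoA inside the mitochondrion, was at 21.6, 22.3, 23.2 and 21.4 CPM in control and 22.6, 28.9, 25.2 and 27.9 CPM in So(d18:1) libraries. So(d18:1) replicate 1 lay among the controls, and the other So(d18:1) libraries lay above them. The mean rose from 22.1 ± 0.813 to 26.2 ± 2.83 CPM (log2 fold change 0.25, SE 0.076, 95% confidence interval 0.088 to 0.40, adjusted p = 0.0467). The call was near the threshold: it was lost without control replicate 1 (adjusted p = 0.0996), control replicate 2 (adjusted p = 0.0612), control replicate 4 (adjusted p = 0.120), So(d18:1) replicate 2 (adjusted p = 0.178), So(d18:1) replicate 3 (adjusted p = 0.0573) or So(d18:1) replicate 4 (adjusted p = 0.144), and with upper quartile scaling, 10 counts in every library or limma-voom (adjusted p = 0.0595, 0.0515 and 0.0549).

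None of the 9 beta-oxidation enzymes passed by edgeR's test (8.94% of all genes did), by its likelihood ratio test, by DESeq2 or by limma-voom. At an unadjusted p of 0.05, 5 did by edgeR's test, its likelihood ratio test and limma-voom and 4 by DESeq2. Of the 5, 4 had a higher value (Acadl, Acadm, Acads and Hadh) and 1 a lower value (Echs1), where 11.4% and 11.9% of all genes had such a p. The 9 log2 fold changes ran from -0.12 to 0.17, with a median of 0.11. Acadm, the medium-chain acyl-CoA dehydrogenase, was at 81.5, 85.4, 81.6 and 82.3 CPM in control and 86.4, 90.4, 90.7 and 90.4 CPM in So(d18:1) libraries, without overlap (log2 fold change 0.11, SE 0.043, adjusted p = 0.112). Acadl, the long-chain dehydrogenase and the highest of the role per length, was at 73.0, 74.4, 73.4 and 74.3 CPM in control and 70.8, 85.5, 78.9 and 85.3 CPM in So(d18:1) libraries (log2 fold change 0.12, SE 0.055, adjusted p = 0.186). So(d18:1) replicate 1 was the lowest of the So(d18:1) libraries for both and lay below all controls for Acadl. Echs1, the short-chain enoyl-CoA hydratase and the lowest of the role per length, was at 59.8, 57.4, 62.5 and 56.9 CPM in control and 52.3, 57.6, 52.9 and 55.0 CPM in So(d18:1) libraries (log2 fold change -0.12, SE 0.052, adjusted p = 0.175). These ranks rest on lengths of 2005 bases for Acadl and 8286 for Echs1. In CPM, Acadvl was lower than Echs1 and Hadha higher than Acadl (control means of 29.7 and 172 CPM). Hadh, the short-chain 3-hydroxyacyl-CoA dehydrogenase, had the largest value of the 9 (log2 fold change 0.17, SE 0.061, adjusted p = 0.0789), and it passed with no filter on low counts (adjusted p = 0.0381) and without control replicate 1 (adjusted p = 0.0431). Acadl passed without So(d18:1) replicate 1 (adjusted p = 0.0401). The others were Acads, the short-chain dehydrogenase (0.13, adjusted p = 0.132), Acadvl, the very-long-chain dehydrogenase (0.13, adjusted p = 0.277), and Acaa2, a mitochondrial thiolase (0.064, adjusted p = 0.525). Hadha and Hadhb, the subunits of the trifunctional protein, were at 0.058 (adjusted p = 0.442) and -0.0056 (adjusted p = 0.968), the latter changing sign with library size alone. Of the exon bases of Acadvl, 42.9% overlap Dvl2 on the opposite strand, and 19.7% of the 50-base words of Hadhb occur in other genes.

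**Figure D4:**
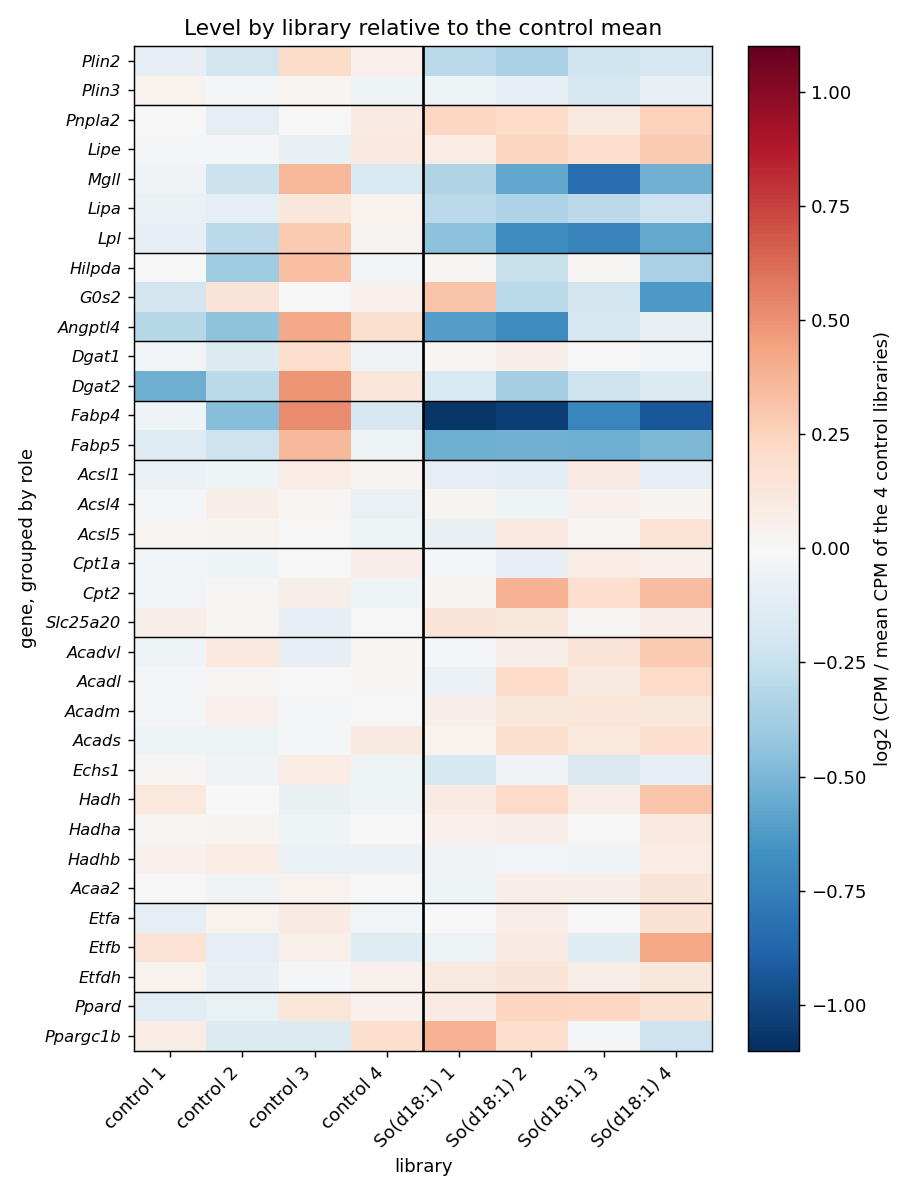
The map gives, for each tested member and library, the log2 ratio of its CPM to the member's mean CPM in the 4 control libraries, in colour from -1.1 to 1.1, with members in rows by role and libraries in columns by group. Fabp4, Lpl, Mgll and Fabp5 are the rows with the strongest lowering in the 4 So(d18:1) columns, and the control replicate 3 column is raised in rows such as Plin2, Mgll, Lpl, Angptl4, Dgat2, Fabp4 and Fabp5.

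The electron transfer flavoprotein takes electrons from the acyl-CoA dehydrogenases. None of its 3 genes passed by the same 4 tests (8.94% of all genes did by edgeR's test). At an unadjusted p under 0.05 there was 1 (23.4% of all genes). Etfa, its alpha subunit, was at 44.1, 48.8, 50.6 and 46.6 CPM in control and 47.3, 49.9, 47.7 and 53.3 CPM in So(d18:1) libraries (log2 fold change 0.062, SE 0.057, adjusted p = 0.560). Etfdh, the dehydrogenase that hands the electrons to ubiquinone, was at 55.0, 50.7, 53.2 and 55.2 CPM in control and 57.2, 58.9, 55.9 and 58.2 CPM in So(d18:1) libraries, with every So(d18:1) library above every control (log2 fold change 0.11, SE 0.050, adjusted p = 0.204). Etfb, the beta subunit, was listed at 3.13, 2.63, 2.91 and 2.56 CPM in control and 2.69, 2.99, 2.55 and 3.76 CPM in So(d18:1) libraries (log2 fold change 0.11, SE 0.17, adjusted p = 0.751). The Etfb level is uncertain, since 58.2% of its exon bases overlap Gm45233 on the same strand, a gene that had 0 counts in every library.

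Among the regulators, Ppard, the PPAR found in most tissues, was at 33.6, 34.7, 39.9 and 37.6 CPM in control and 38.8, 42.9, 42.7 and 41.0 CPM in So(d18:1) libraries. Only control replicate 3 exceeded the lowest So(d18:1) library. The difference did not pass (log2 fold change 0.18, SE 0.062, adjusted p = 0.0771), though it did without control replicate 3 (0.23, adjusted p = 0.0290). Ppargc1b, a coactivator of mitochondrial genes, was at 1.73, 1.47, 1.48 and 1.86 CPM in control and 2.13, 1.85, 1.61 and 1.40 CPM in So(d18:1) libraries, with groups that overlapped (log2 fold change 0.087, SE 0.21, adjusted p = 0.856).

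The other genes of the pathway were read from a list of 115, of which 93 were tested. Of these, 10 passed (10.8%, beside 8.94% of all genes), 5 higher and 5 lower, and the median log2 fold change was 0.023. With upper quartile scaling the split was 2 higher and 8 lower. The count was 6 without control replicate 3, So(d18:1) replicate 2 or So(d18:1) replicate 4. The largest change among the 10 was in Pparg (ENSMUSG00000000440, chr6:115360951-115490399), the PPAR of adipocytes and macrophages. Pparg was at 11.1, 9.71, 12.1 and 11.6 CPM in control and 5.05, 4.57, 5.99 and 6.40 CPM in So(d18:1) libraries, with a wide gap between the groups. Its part in the changes of the members was not tested. The mean fell from 11.1 ± 1.03 to 5.50 ± 0.841 CPM (log2 fold change -1.01, SE 0.12, adjusted p = 9.82e-06), and it passed with each library left out (-1.10 to -0.92). Nr1h3, the oxysterol receptor LXRα, also fell (13.3 ± 2.69 to 8.75 ± 1.28 CPM; log2 fold change -0.60, SE 0.14, adjusted p = 0.0104), as did Lpin1, a phosphatidate phosphatase of triglyceride synthesis (log2 fold change -0.22, SE 0.052, adjusted p = 0.0104). These 2 passed with each library left out. Fabp7, a further binding protein, fell too (log2 fold change -0.43, SE 0.11, adjusted p = 0.0163), but did not pass without control replicate 3 (adjusted p = 0.0702) or So(d18:1) replicate 2 (adjusted p = 0.0518).

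Among the pathway genes that rose were Pdk3, a pyruvate dehydrogenase kinase (19.3 ± 2.47 to 26.2 ± 0.636 CPM; log2 fold change 0.44, SE 0.080, adjusted p = 0.00118), Abcd2, a peroxisomal transporter of very-long-chain acyl-CoA (log2 fold change 0.25, SE 0.050, adjusted p = 0.00241), Pdk2, another such kinase (log2 fold change 0.24, SE 0.070, adjusted p = 0.0373), and Eci2, an enoyl-CoA isomerase (log2 fold change 0.18, SE 0.057, adjusted p = 0.0477). Pdk3 and Abcd2 passed with each library left out. Pdk2 did not pass without control replicate 3 (adjusted p = 0.106), control replicate 4 (adjusted p = 0.119), So(d18:1) replicate 2 (adjusted p = 0.0804) or So(d18:1) replicate 4 (adjusted p = 0.143). Eci2 passed in none of the 8 fits with a library left out (adjusted p up to 0.115), and 11.1% of its 50-base words occur in other genes. Cd36, the scavenger receptor that takes up fatty acids and oxidised lipoprotein, was at 356, 331, 455 and 421 CPM in control and 298, 319.6, 286 and 315 CPM in So(d18:1) libraries. All So(d18:1) libraries lay below all controls, yet the adjusted p lay just above 0.05 (log2 fold change -0.36, SE 0.10, adjusted p = 0.0552), and it passed in 8 of 9 other settings. With 1 library left out, it passed without control replicate 1, 2 or 3 (adjusted p = 0.0400, 0.00138 and 0.0338) and did not pass in the other 5 fits (largest adjusted p = 0.145), and its log2 fold change ran from -0.43 to -0.28, the smallest change being without control replicate 3. By role, 12 of 16 further mitochondrial oxidation genes and 10 of 12 peroxisomal genes had higher values in So(d18:1) libraries, beside 7387 of all 14514 genes tested, with 2 and 1 passing as higher (3.87% of all genes). Lower values were found in 7 of 11 further triglyceride synthesis genes, beside 7127 of all 14514, and 1 of them, Lpin1, passed as lower (5.07% of all genes). The 7 further droplet protein genes were split, with 4 higher and 3 lower values and a median log2 fold change of 0.0099. None of these 7 passed (8.94% of all genes). Uptake and activation genes had 7 higher and 9 lower values, regulators 6 and 8, and further carnitine genes 4 and 1.

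**Figure D5:**
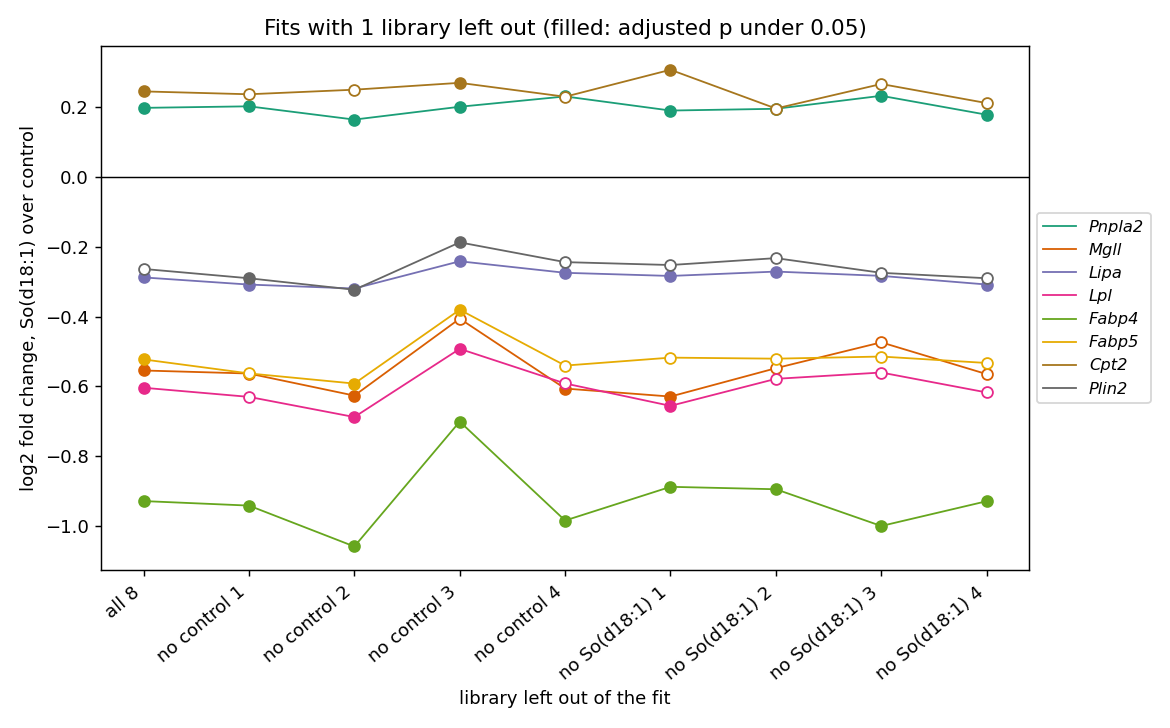
The plot gives the log2 fold change of the 7 members that passed and of Plin2 in the fit to all 8 libraries and in each of the 8 fits with 1 library left out, with filled points for an adjusted p under 0.05. Lipa, Pnpla2 and Fabp4 are filled in every fit, and Lpl, Mgll, Fabp5 and Cpt2 keep their direction while losing the threshold in 5 or 6 of the 8.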

How the data were processed

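RNA-seq libraries of BMDMs were compared between 4 control and 4 So(d18:1) samples, grouped by their titles. The authors deposited 1 table of raw counts, whole numbers for each Ensembl gene and library, with the length of each gene beside them. Per the submitters' processing notes, reads were trimmed with Trim Galore 0.6.7, aligned to mm10 with HISAT2 2.2.1 and counted with featureCounts 2.0.1. The strand setting and the treatment of multiply mapped reads are not given in the sources used here, so genes that overlap another gene or share sequence with one are uncertain. The deposited lengths equalled the summed exon lengths of GENCODE release 21 (GRCm38) for 98.7% of the 52081 identifiers found there, which also gave symbols and positions.

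The counts were fitted in R 4.3.3 with edgeR 4.0.16: filterByExpr, TMM (factors 0.989 to 1.01), robust quasi-likelihood F test and Benjamini-Hochberg adjustment over the 14514 genes kept. The SE was obtained by dividing the size of the log2 fold change by the root of its F statistic. Counts were also tested with limma 3.58.1 (voom) and DESeq2 1.42.0. The fit was repeated with library size alone, upper quartile scaling or DESeq2's size factors, no filter, 10 counts in every library, the likelihood ratio test, the replicate number as a block and each library left out. Shared sequence was measured as the percent of a gene's 50-base transcript words found in other genes. Exact permutation tests used scipy 1.17.1 and figures matplotlib 3.10.9.

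The members, the pathway and marker lists and the tests were chosen with earlier results of these data known, so none of them is independent evidence. Members were given in full where they passed, where groups did not overlap or where they were the highest or lowest of their role per length, and pathway genes where they passed, with Cd36 and Pparg added. Of the pathway genes that passed, 2 are not reported here by name. Angptl4, Lipe and Hadh are given more fully than this rule asks.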

Additional observations from a re-analysis of the deposited data

Results flagged for a closer look

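In 4 of 90 groups of 4 libraries, 1 library stood apart from the other 3 by Dixon's ratio, the gap to the nearest library divided by the whole range, being above its 95% critical value. Chance gives about 4.5 of 90. All 4 were So(d18:1) groups of members that did not pass the test. For Acsl1 the ratio was 0.883, with replicate 3 at a log2 CPM of 5.92 and the others at 5.71 to 5.73. For Acsl4 it was 0.841, with replicate 2 at 6.45 and the others at 6.54 to 6.56. For Acadm it was 0.939, with replicate 1 at 6.43 and the others at 6.50. For Hadhb it was 0.924, with replicate 4 at 5.83 and the others at 5.71 to 5.72.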

How the results depend on the processing

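The counts of calls depended on the call rule and on single libraries more than on the tool. With an unadjusted p of 0.05 and a 1.5-fold change, 564 genes, 2 members and 5 pathway genes were called, where the adjusted p gave 1298, 7 and 10. Leaving out 1 library gave 815 to 1370 genes, 3 to 8 members and 6 to 13 pathway genes, with fewer libraries in each fit. The other 9 settings gave 1289 to 1784 genes, 6 to 10 members and 9 to 15 pathway genes. The highest of each came with the replicate number as a block: 1784 genes, 10 members (Angptl4, Plin2 and Ppard added) and 15 pathway genes. Whether the numbers pair the libraries cannot be told from the labels. Deviations of same-numbered libraries from their group means correlated at -0.0035 to 0.10, and 1 of 4 control libraries correlated best with its own number. So few correlations cannot decide it. Signs changed for members near 0. Cpt1a was at -0.0083 with upper quartile scaling and -0.0022 with 10 counts in every library, and Hadhb at 0.00045 with library size alone. With libraries left out, Dgat1 ran from -0.032 to 0.088, Acsl4 from -0.0075 to 0.041, Cpt1a from -0.019 to 0.035, Hadhb from -0.037 to 0.024, Etfb from -0.025 to 0.18 and Ppargc1b from -0.013 to 0.19. Over 45 members and pathway genes, 370 of the values in other settings kept direction and side of the threshold, 19 came to pass, 13 no longer passed and 3 changed sign, and with libraries left out these were 290, 9, 47 and 14. The cause was not tested. With 4 libraries a group, small differences in G0s2, Mgll, Etfb and Ppargc1b are limited by low counts.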

Other observations

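The list of fatty acid synthesis and desaturation genes, which also holds Acacb and the malonyl-CoA decarboxylase Mlycd, had 12 tested genes. Of these, 0 passed by edgeR's quasi-likelihood test (8.94% of all genes did), 0 by DESeq2, 1 by the likelihood ratio test (Elovl1) and 1 by limma-voom (Scd1). By edgeR's quasi-likelihood test 5 had an unadjusted p under 0.05 (23.4% of all genes). Values in So(d18:1) libraries were higher for 4 of them, Acacb included (11.4%), and lower for 1 (11.9%). Scd1, the stearoyl-CoA desaturase that makes monounsaturated fatty acids, was chosen after its values were seen. It was at 5.39, 6.25, 2.15 and 3.14 CPM in control and 8.75, 14.8, 5.42 and 7.88 CPM in So(d18:1) libraries. The groups overlapped, and its log2 fold change of 1.13 had an SE of 0.44 (adjusted p = 0.184). Acacb, the mitochondrial acetyl-CoA carboxylase whose product inhibits CPT1, was also chosen after its values were seen, at 1.59, 1.59, 0.801 and 1.07 CPM in control and 1.91, 1.99, 1.98 and 1.82 CPM in So(d18:1) libraries, without overlap (log2 fold change 0.61, SE 0.24, adjusted p = 0.119). In both genes control replicate 3 was the lowest control library, the reverse of its place in Fabp4, Lpl and Plin2.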
